A study of Mus musculus with 9 samples.

Results

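Clca3b, Sprr1a, Sprr2g, Crct1 and Psca were grouped as genes of stressed or keratinising epithelium. Their levels were followed through cultures of mouse kidney cells given an inflammatory cytokine with or without an inhibitor. The group is 5 of the 57010 genes counted. These genes were listed because some were higher only where the inhibitor was present and others were lower with the cytokine. So they were chosen by their measured levels in all 3 comparisons, which are given below as a description with no test. All 5 passed the filter on low counts that left 14747 genes.

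RNA was sequenced from renal cells of wild-type mice grown in primary culture, in 3 groups of 3 libraries taken after 6 h. One group received PBS, another tumour necrosis factor (TNF) at 20 ng/mL, and the other TNF at 20 ng/mL together with 1 uM ACHP, an inhibitor of the IkB kinase that activates NF-kB. No group received ACHP alone, so an effect of ACHP without TNF was not measured. The labels do not say whether the libraries of a group came from separate mice or cultures, so p-values measure only the spread between these libraries. PBS replicate 1 stood apart from the other PBS libraries: 20 neuron markers summed to 17.5 CPM (counts scaled to a common library size) in it and to 128.4 and 96.2 in PBS replicates 2 and 3.

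The cornified envelope is the cross-linked protein shell that replaces the plasma membrane of dying cells at the surface of skin and other stratified epithelia. Small proline-rich (SPRR) proteins, involucrin, loricrin and late cornified envelope proteins are its building blocks, and transglutaminases join them. Their genes lie side by side with S100 genes in the epidermal differentiation complex, and several SPRR genes are also switched on in injured or inflamed simple epithelia. Sprr1a and Sprr2g encode SPRR proteins, and Crct1 encodes a small cysteine-rich protein of the same complex. Clca3b belongs to the calcium-activated chloride channel regulators (CLCA), proteins with a metalloprotease domain, many of them secreted. Psca encodes a membrane protein held by a lipid anchor, of the Ly6/uPAR family, known from prostate and bladder epithelium. Clca3b and Psca are not envelope genes.

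Sprr2g (ENSMUSG00000046203), Sprr1a (ENSMUSG00000050359) and Crct1 (ENSMUSG00000027913) lay in that order in the epidermal differentiation complex of chromosome 3, at chr3:92281222-92282536, chr3:92391259-92393202 and chr3:92921512-92922994 on GRCm39. Clca3b (ENSMUSG00000037033) lay elsewhere on the same chromosome, in the CLCA cluster at chr3:144528384-144555118. Psca (ENSMUSG00000022598) was at chr15:74586688-74588918, in a cluster of Ly6-type genes. These are whole genes with their exons and introns, Sprr2g and Psca on the plus strand and the others on the minus strand, and none shared exon bases with another gene.

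RefSeq promoter windows on GRCm38.p6 were matched for 2 of the 5 genes, Clca3b and Sprr1a. Entries for Sprr2g, Crct1 and Psca were not matched. The 250 bases before each start are printed 5' to 3' on the gene's strand because both genes were higher with ACHP. Capitals mark AP-1 motifs (TGANTCA) and the TATA box (TATAAA). The Clca3b window is chr3:144849303-144849552 and the Sprr1a window chr3:92485882-92486131.
Clca3b: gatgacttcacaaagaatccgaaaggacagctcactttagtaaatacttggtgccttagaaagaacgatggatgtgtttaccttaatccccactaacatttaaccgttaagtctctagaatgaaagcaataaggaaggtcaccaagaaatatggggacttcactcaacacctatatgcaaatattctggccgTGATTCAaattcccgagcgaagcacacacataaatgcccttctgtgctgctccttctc
Sprr1a: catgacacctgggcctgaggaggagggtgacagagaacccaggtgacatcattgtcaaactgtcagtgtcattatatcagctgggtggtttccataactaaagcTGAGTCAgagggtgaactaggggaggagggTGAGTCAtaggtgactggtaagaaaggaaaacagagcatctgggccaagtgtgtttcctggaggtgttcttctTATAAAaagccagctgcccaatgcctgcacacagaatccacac

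In the windows searched on both strands, which ran from 250 bases before the start to 50 after it, Sprr1a held 2 AP-1 motifs, at -146 and -116 from the start, and a TATA box at -43. Of 32851 promoter windows of this length 7.81% held an AP-1 motif, 0.46% held 2 or more and 13.6% held a TATA box. Clca3b held 1 AP-1 motif, at -58, and no TATA box. The KLF-type motif GGGTGG was in the Sprr1a window at -168 (31.5% of all windows), and the ETS core GGAAG in the Clca3b window at -118 (71.4% of all windows). Motifs of the NF-kB type, in 2 spellings of which 1 is a special case of the other (5.56% of all windows), and the C/EBP motif TTGCNNAA (10.8%) were not among the letters of either window. At the places named no motif overlapped another. A match is a description of letters and was not tested as a binding site.

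SPRR genes resemble one another, so the bases annotated as coding in Sprr2g and its neighbour Sprr2f are printed from GENCODE M21 (GRCm38) to show how reads can tell them apart. Capitals mark bases that differ between them or have no partner in the alignment.
Sprr2g: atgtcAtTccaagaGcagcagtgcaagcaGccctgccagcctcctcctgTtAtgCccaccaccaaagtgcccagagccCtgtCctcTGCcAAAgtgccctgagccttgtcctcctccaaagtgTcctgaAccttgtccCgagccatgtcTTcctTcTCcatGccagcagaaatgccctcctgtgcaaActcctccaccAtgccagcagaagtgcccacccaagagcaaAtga
Sprr2f: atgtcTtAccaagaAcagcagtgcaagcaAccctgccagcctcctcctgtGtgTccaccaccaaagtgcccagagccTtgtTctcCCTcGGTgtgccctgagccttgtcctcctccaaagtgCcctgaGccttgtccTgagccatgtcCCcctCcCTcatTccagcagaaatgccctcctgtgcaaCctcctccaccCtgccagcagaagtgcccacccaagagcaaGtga

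Over 231 aligned bases 26 differed and 205 were identical (88.7%), and Sprr2g had 1 more base, so its annotated 232 bases are not a whole number of codons. Of all runs of 50 bases in the transcripts of Sprr2g, Sprr1a, Crct1 and Psca, 0% occurred in another gene's transcripts. In Clca3b 198 of 2962 such runs (6.68%) also occurred in Clca3a1 or Clca3a2. The counting settings left out reads that align to several places, so counts of the near-identical Sprr2a1 and Sprr2a2 (96.3% and 96.5% of runs shared) may miss most of their reads, and low values there are uncertain.

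Levels below are counts scaled to a common library size (CPM) with TMM, a factor that corrects for differences in library composition, and differences are log2 fold changes with their standard error from edgeR. Sprr1a had 93.5, 98.2 and 104.2 CPM in the 3 PBS libraries, 89.9, 90.7 and 92.0 CPM with TNF, and 149.1, 158.8 and 174.1 CPM with TNF and ACHP. All 3 ACHP libraries lay above the other 6, and the TNF libraries lay just below the PBS libraries without overlap. The group means were 98.6 ± 5.38 CPM in PBS, 90.9 ± 1.09 in TNF alone and 160.7 ± 12.6 in the combination (SD, n = 3). The log2 difference was 0.82 ± 0.05 (SE) between TNF with ACHP and TNF, 0.70 ± 0.05 between TNF with ACHP and PBS, and -0.12 ± 0.05 between TNF and PBS.

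Crct1 showed the same shape at a lower level. Its PBS libraries had 7.48, 7.80 and 7.90 CPM, its TNF libraries 7.74, 6.196 and 8.198 CPM, and its libraries with TNF and ACHP 12.3, 13.5 and 13.96 CPM. PBS and TNF overlapped, with TNF replicate 2 the lowest of all 9 libraries, and the ACHP libraries stood above both. Counts were between 93 and 283, for which counting error alone is 10.4% at the lowest and 5.94% at the highest. The log2 difference was 0.84 ± 0.11 (SE) from TNF to TNF with ACHP, 0.78 ± 0.11 from PBS to TNF with ACHP, and -0.07 ± 0.12 from PBS to TNF.

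Sprr2g took the other direction. It had 13.3, 15.3 and 16.8 CPM in PBS, 8.07, 8.06 and 9.03 CPM with TNF, and 7.91, 9.59 and 9.31 CPM with TNF and ACHP. Every PBS library lay above all 6 libraries that received TNF, and the TNF libraries with and without ACHP overlapped. The means were 15.1 ± 1.72, 8.39 ± 0.56 and 8.93 ± 0.90 CPM (SD, n = 3). The log2 difference was -0.86 ± 0.11 (SE) for TNF against PBS and -0.76 ± 0.11 for TNF with ACHP against PBS, and 0.10 ± 0.12 for TNF with ACHP against TNF. The SPRR genes of this culture lay at different levels in different groups: Sprr1a was highest where ACHP was present and Sprr2g where neither agent was.

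Clca3b had the largest difference of the 5 in the comparison of TNF with ACHP against TNF. Its libraries had 24.2, 22.8 and 19.9 CPM in PBS, 20.97, 21.6 and 22.6 CPM with TNF, and 56.1, 50.3 and 54.0 CPM with TNF and ACHP. PBS and TNF overlapped, and the lowest ACHP library lay above the highest of the rest by more than any group's range. The mean was 21.8 ± 0.82 CPM with TNF and 53.4 ± 2.95 CPM with TNF and ACHP (SD, n = 3), a 2.46-fold difference or 1.30 ± 0.07 (SE) on the log2 scale. Against PBS the log2 difference was 1.27 ± 0.07 for TNF with ACHP and -0.03 ± 0.08 for TNF.

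Psca was the least abundant, with 77, 96 and 136 counts in PBS, 44, 45 and 54 in TNF, and 47, 68 and 49 in TNF with ACHP. These came to 5.43, 5.35 and 7.36 CPM, then 2.42, 3.00 and 3.46 CPM, then 2.88, 3.24 and 3.12 CPM. The PBS libraries stood above all others, led by PBS replicate 3, and the remaining groups overlapped. Counting error was 15.1% at the lowest count. The log2 difference was -1.04 ± 0.18 (SE) for TNF against PBS, -0.97 ± 0.18 for TNF with ACHP against PBS, and 0.07 ± 0.20 for TNF with ACHP against TNF. With any 1 library left out, the difference of TNF from PBS lay between -1.18 and -0.87.

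**Figure D1:**
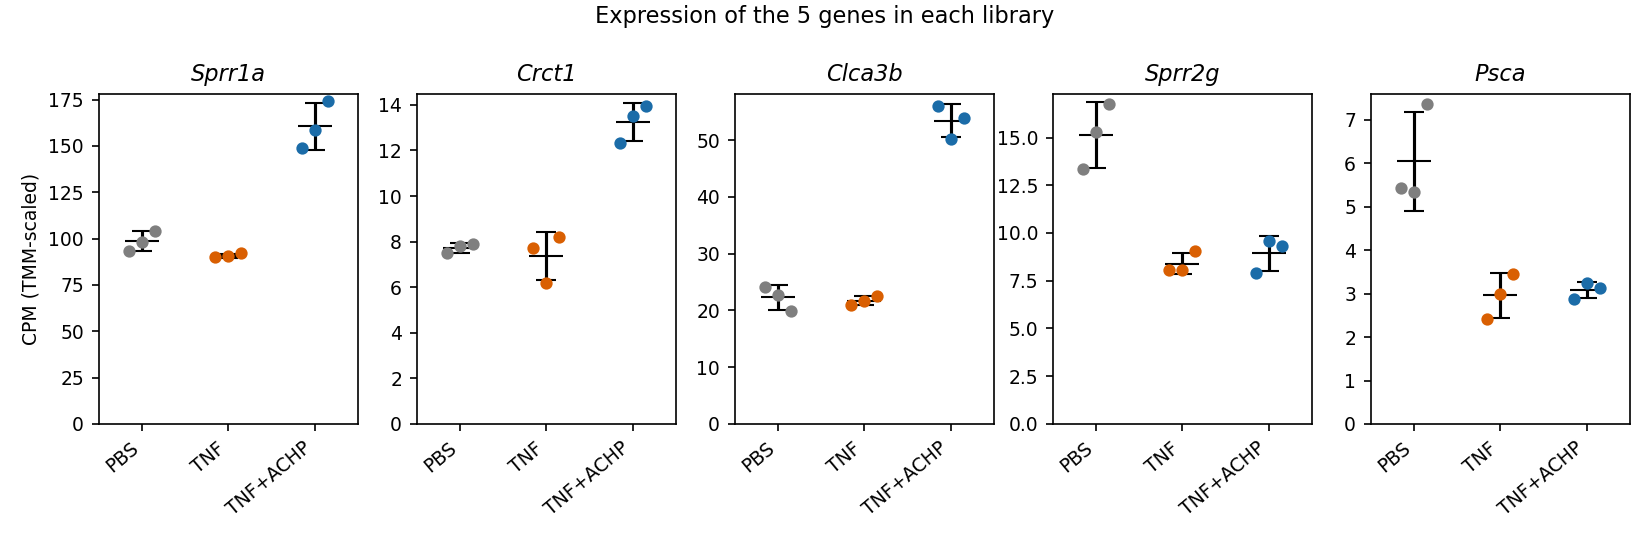
CPM (TMM-scaled, vertical axis from 0, a separate scale per gene) of the 5 genes in each library by group; points are libraries, the long dash and bars are the mean and SD of 3 libraries. Sprr1a, Crct1 and Clca3b are highest in the 3 TNF+ACHP libraries, and Sprr2g and Psca are highest in the 3 PBS libraries.

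Counted together, 3 of the 5 genes were lower with TNF than with PBS in all libraries (Sprr1a, Sprr2g and Psca), where 11.5% of all genes tested were. Adding ACHP to TNF put 3 of 5 above all TNF libraries (Clca3b, Sprr1a and Crct1), where 12.4% of all genes were. Between TNF with ACHP and PBS the same 3 were higher without overlap (10.7% of all genes) and Sprr2g and Psca lower (9.94% of all genes). These comparisons chose the genes, so nothing is read from the shares. With any 1 library left out, the log2 difference of TNF with ACHP from TNF lay between 1.26 and 1.34 for Clca3b, 0.76 and 0.87 for Sprr1a, and 0.73 and 0.92 for Crct1, and that of TNF from PBS between -0.94 and -0.78 for Sprr2g. All 3 comparisons share groups: TNF with ACHP against TNF and TNF against PBS use the same TNF libraries.

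Per kilobase of exon the order of the levels changed between groups. In PBS it was Sprr1a (122.4 ± 6.67 CPM per kb, SD, n = 3), Sprr2g (23.2 ± 2.65), Crct1 (9.76 ± 0.28), Psca (7.03 ± 1.32) and Clca3b (6.63 ± 0.66), and the latter pair overlapped. With TNF alone Sprr1a remained first at 112.7 ± 1.35 CPM per kb, followed by Sprr2g (12.9 ± 0.86), Crct1 (9.32 ± 1.32), Clca3b (6.47 ± 0.24) and Psca (3.44 ± 0.61), with no overlap between neighbours. With TNF and ACHP Crct1 (16.7 ± 1.07 CPM per kb) and Clca3b (15.9 ± 0.88), which overlapped, stood above Sprr2g (13.7 ± 1.38), and Sprr1a reached 199.3 ± 15.7. Over all 9 libraries Sprr1a was at the 98.5th percentile of tested genes by CPM per kb, Sprr2g at 79.8, Crct1 at 72.8, Clca3b at 67.7 and Psca at the 50th.

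Across the 9 libraries the 5 genes fell into 2 patterns. The Pearson correlation of log2 CPM was 0.97 between Sprr1a and Crct1, 0.96 between Sprr1a and Clca3b, 0.94 between Clca3b and Crct1, and 0.97 between Sprr2g and Psca. Between the patterns it was -0.24 to -0.42. These are descriptions over 9 libraries in 3 groups, so they mostly repeat the group levels, and every gene in a pair shares the other's libraries and their depth.

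The genes most like each of them were sought among those with a mean of at least 5 CPM (10176 genes, or 10177 for Psca). For Clca3b they were Cntrob (r = 0.968), Tbc1d9 (0.968) and Cers2 (0.967), for Sprr1a Epha2 (0.982), Itga3 (0.981) and Txnip (0.981), and for Crct1 Nfe2l1 (0.976), Errfi1 (0.974) and Sprr1a (0.966). For Sprr2g they were Dmpk (0.979), Kcnj16 (0.978) and Dhrs3 (0.976), and for Psca Ggt1 (0.977), Fgfr2 (0.973) and Fam199x (0.973), each over 9 libraries. A high correlation here is a likeness of shape and not of size. Among the genes like Clca3b, Sprr1a and Crct1, other than Sprr1a, Itga3 had the largest log2 difference between TNF with ACHP and TNF. It is an integrin subunit of epithelial cells and had 0.28 ± 0.03 (SE), and Nfe2l1 had the smallest, 0.10 ± 0.03 (edgeR adjusted p = 0.061). Among those like Sprr2g and Psca, the difference between TNF and PBS ran from -0.60 ± 0.06 for Dhrs3, a retinaldehyde reductase, to -0.20 ± 0.05 for Fam199x.

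**Figure D2:**
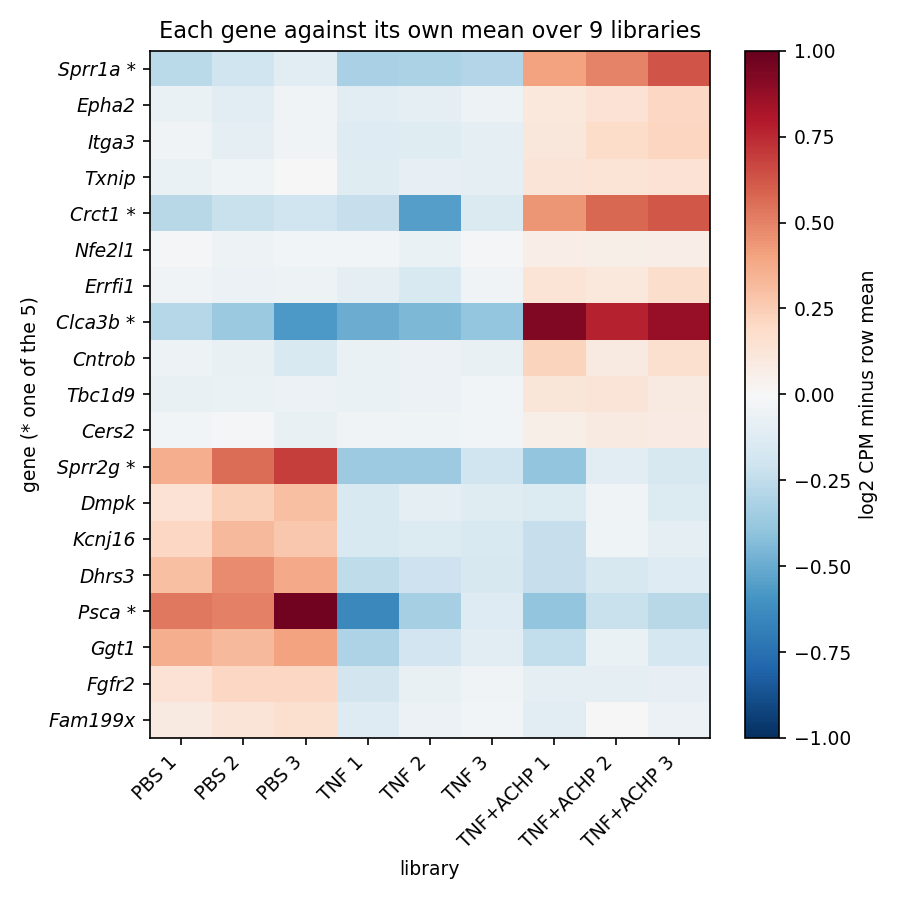
Log2 CPM of each gene minus its own mean over the 9 libraries (colour, red above and blue below that mean; columns are libraries, rows are genes, a star marks the 5). Clca3b, Sprr1a and Crct1 and the genes most like them are above their mean in the 3 TNF+ACHP libraries, and Sprr2g and Psca and theirs in the 3 PBS libraries; Sprr1a, also near Crct1, is drawn once.

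Genes next to them on the chromosome were examined with edgeR, with p-values adjusted over all 14747 genes. Clca3a2, 3.1 kb from Clca3b and 86.8% identical to it over the aligned coding bases, was at 13 to 47 counts. Its log2 difference of TNF with ACHP from TNF was 0.64 ± 0.36 (SE; edgeR adjusted p = 0.33) and the groups overlapped. Sprr2f, 7.5 kb from Sprr2g, had 26, 29 and 30 counts in PBS, 13, 13 and 17 in TNF alone and 12, 19 and 23 in the combination. Its PBS libraries stood above all others as in Sprr2g, with a log2 difference of TNF from PBS of -0.93 ± 0.33 (edgeR adjusted p = 0.11). On either side of Psca, Jrk showed -0.07 ± 0.10 for TNF against PBS (edgeR adjusted p = 0.78) and Them6 fell by 0.41 ± 0.11 on the log2 scale (edgeR adjusted p = 0.037). The Them6 call was lost without PBS replicate 1 or 3 or any 1 of the TNF libraries (adjusted p = 0.059 to 0.19, edgeR), with DESeq2 (0.095) and with a term for neuronal transcripts described below (0.058, edgeR). Odf2l beyond Clca3b, and Lce1h and Tchh around Crct1, passed the edgeR threshold in none of the comparisons (smallest adjusted p = 0.35, 0.19 and 0.83).

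The SPRR family otherwise had few counts. Of 14 other SPRR genes counted 3 had no count, and Sprr2f alone passed the filter. Sprr1b, 83.2% identical to Sprr1a over the aligned coding bases, had 4 counts in all 9 libraries together, Sprr3 had 1, Sprr2e 18 and Sprr2h 24. The CLCA family likewise had Clca3b and Clca3a2 above the filter, with 73 counts for Clca3a1 and 5 for Clca1, a gene of mucus-producing epithelium, over all libraries.

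Markers of a stratified, keratinising epithelium were counted unevenly. Of 25 keratins listed 10 passed the filter, and of 39 cross-linkers and desmosome genes 24 did. Krt5 and Krt14, the keratins of basal keratinocytes, had 32 and 10 counts over all 9 libraries, Krt1 of the layer above had 5, and Krt13 of wet stratified epithelium had 1. Krt10, the partner of Krt1, had 422 counts, and Krt16 and Krt17, keratins of stressed epidermis, had 361 and 8621. Tgm1, the transglutaminase that builds the envelope, was counted in every library, at 268 to 376, and Casp14, a protease of cornifying cells, at 59 to 104. Ivl, which encodes an early envelope protein, had 3477 counts over all libraries, and Ppl, which encodes the cytolinker periplakin, had 12802.

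The epidermal differentiation complex, taken from S100a1 to S100a10 (3.05 Mb of chromosome 3), held 120 genes besides Sprr1a, Sprr2g and Crct1, of which 47 had no count and 21 were tested. TNF raised 3 of the 21 and lowered 1 against PBS, by edgeR, where 3.31% of all genes tested rose and 2.91% fell. Adding ACHP to TNF raised 1 and lowered 1 (2.71% and 4.46% of all genes), and against PBS TNF with ACHP left 3 higher and 1 lower (2.18% and 3.87% of all genes). The median log2 difference of the 21 was -0.10 for TNF against PBS (all genes -0.002) and 0.08 for TNF with ACHP against TNF (all genes 0.003).

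Ivl, which encodes involucrin and is the next tested gene after Sprr1a, 85 kb away, combined both patterns. It had 29.6, 28.0 and 26.2 CPM in PBS, 17.4, 16.1 and 18.0 CPM with TNF, and 23.5, 21.5 and 25.2 CPM with TNF and ACHP, and the 3 groups did not overlap. With TNF it fell by 0.70 ± 0.08 (SE) on the log2 scale (edgeR adjusted p = 7.3e-06), a call kept in all alternatives run. Adding ACHP raised it by 0.44 ± 0.08 (edgeR adjusted p = 0.0014), and the remaining log2 difference from PBS was -0.26 ± 0.07 (edgeR adjusted p = 0.044). The last call was lost without PBS replicate 1 or 2, TNF replicate 1 or 3, or TNF+ACHP replicate 1 or 2 (adjusted p = 0.052 to 0.2, edgeR).

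Late cornified envelope genes, which encode proteins added last to the envelope, were counted at low levels. Lce1g had 4.26 ± 0.68 CPM in PBS, 5.04 ± 0.75 in TNF alone and 6.44 ± 0.85 in the combination (SD, n = 3), and rose by 0.58 ± 0.16 (SE) on the log2 scale between PBS and TNF with ACHP (edgeR adjusted p = 0.035). That call was lost without PBS replicate 1 or 2, TNF replicate 2, or TNF+ACHP replicate 2 or 3 (adjusted p = 0.051 to 0.17, edgeR). Lce1f, named after its values were seen, had 6, 12 and 6 counts in PBS, 16, 11 and 14 in TNF alone and 26, 29 and 21 in the combination, a log2 rise of 1.59 ± 0.36 against PBS (edgeR adjusted p = 0.01), which was lost without PBS replicate 3 (adjusted p = 0.051, edgeR) and with either term for neuronal transcripts described below (0.2 and 0.17). With those 2 terms the log2 rise of Lce1f was 1.75 and 1.81. Loricrin (Lor), the main protein of the epidermal envelope, was at 1.48 ± 0.50 CPM with PBS and 1.29 ± 0.06 with TNF (edgeR adjusted p = 0.81).

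Pglyrp3, a peptidoglycan recognition protein gene of the complex also named after its values were seen, was highest with TNF alone. It had 3, 2 and 2 counts in PBS, 12, 21 and 19 in TNF alone, and 1, 11 and 5 in the combination. It rose by 2.89 ± 0.60 (SE) on the log2 scale with TNF (edgeR adjusted p = 0.0049) and fell by 1.75 ± 0.51 when ACHP was added (edgeR adjusted p = 0.041). The fall was lost without TNF replicate 2 or 3, or TNF+ACHP replicate 1 or 3 (adjusted p = 0.12 to 0.19, edgeR).

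The S100 genes, calcium-binding proteins at the ends of the complex, changed by small amounts. S100a10, the annexin A2 partner, rose from 230.1 ± 1.98 CPM with PBS to 262 ± 9.58 with TNF (SD, n = 3), a log2 difference of 0.19 ± 0.04 (SE; edgeR adjusted p = 0.0062), and remained 0.15 ± 0.04 above PBS with ACHP (edgeR adjusted p = 0.033). The first call was lost without TNF replicate 1 or 2 (adjusted p = 0.053 and 0.054, edgeR), and the other without any 1 of 7 libraries, TNF replicate 3 and TNF+ACHP replicate 2 being the exceptions (up to 0.18, edgeR). S100a11 rose by 0.15 ± 0.05 with TNF at the threshold itself (edgeR adjusted p = 0.05), and lost the call without any 1 of PBS replicates 1 and 3, the 3 TNF libraries and TNF+ACHP replicate 1 (up to 0.19, edgeR).

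**Figure D3:**
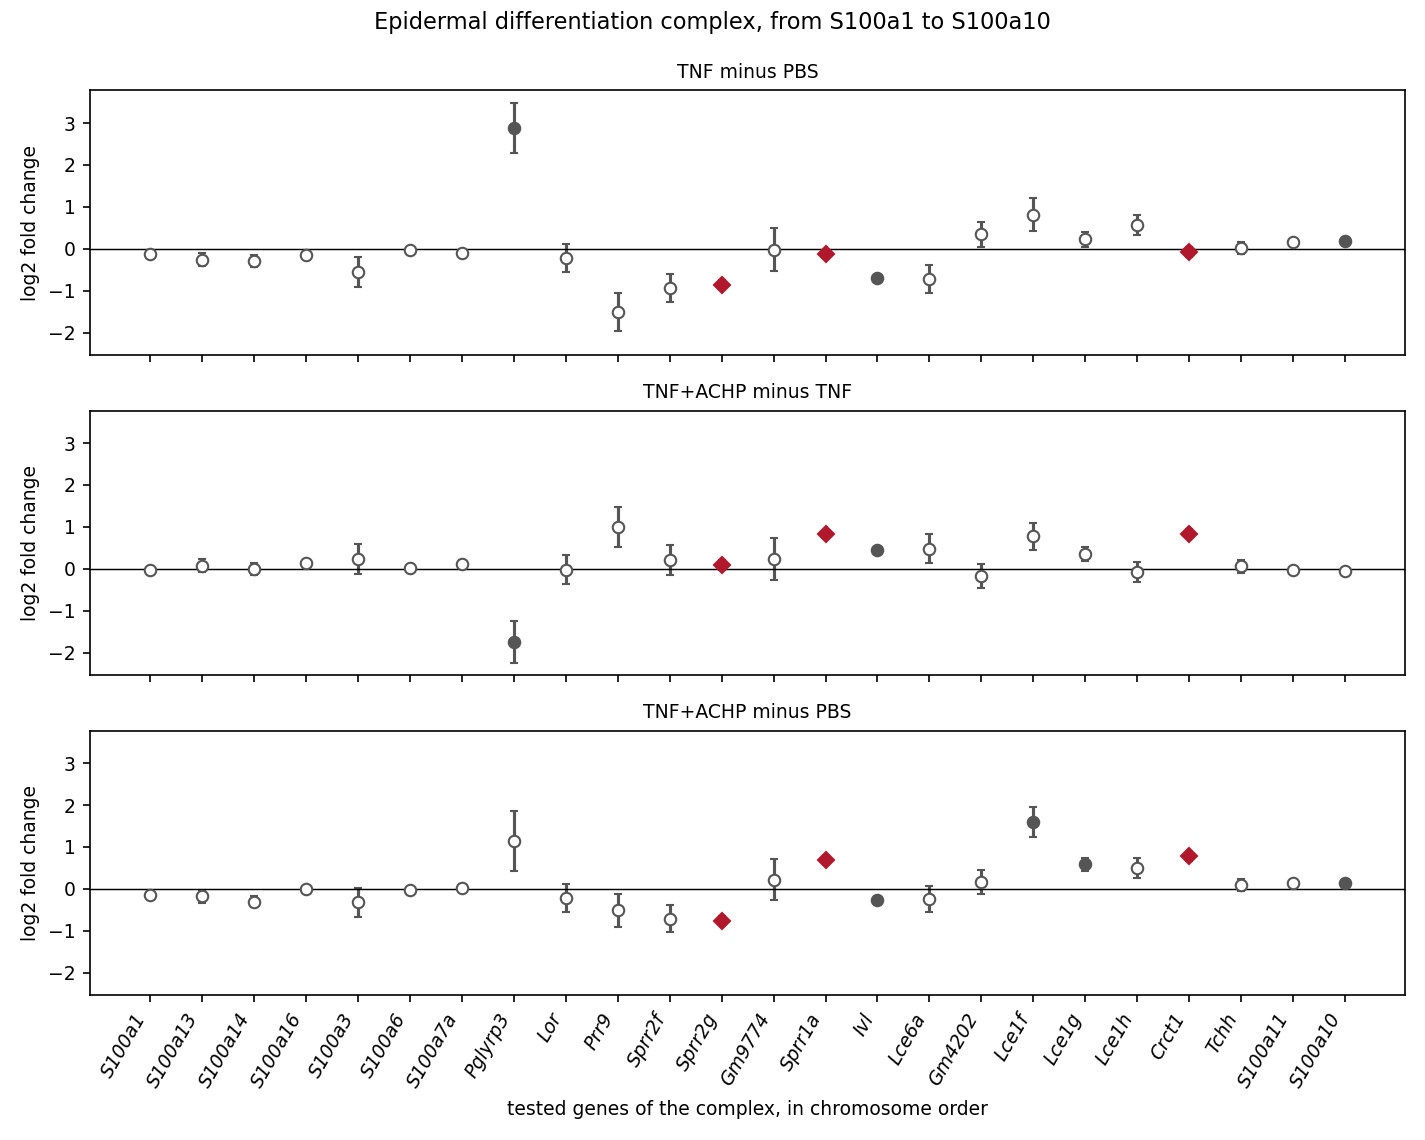
Log2 fold change (vertical axis, bars ± SE, hidden where smaller than the symbol) of the 24 tested genes of the complex in chromosome order, for the 3 comparisons. Red diamonds are Sprr2g, Sprr1a and Crct1, filled whatever their p-value. Circles are other genes, filled at a rounded edgeR adjusted p under 0.05. S100a11, called in TNF minus PBS before rounding, is therefore drawn open there. Sprr1a and Crct1 lie near 0.8 in TNF+ACHP minus TNF with Lce1h and Tchh, beside Crct1, near 0, and Sprr2g lies at -0.86 in TNF minus PBS.

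Related genes outside the complex came from lists of envelope cross-linkers and desmosome genes, keratins, the Ly6/uPAR family, regulators of keratinising epithelium and urothelium. With the family and envelope lists above they made 220 symbols, of which 212 were in the table and 107 passed the filter. By edgeR TNF raised 6 and lowered 14 of the 107 (18.7%) where 6.22% of all genes tested were called. Adding ACHP to TNF raised 11 and lowered 9 (18.7%, against 7.17% of all genes), and TNF with ACHP against PBS raised 11 and lowered 7 (16.8%, against 6.04% of all genes). The median log2 differences were -0.08, 0.02 and -0.05, against -0.002, 0.003 and 0.005 over all genes. DESeq2 called 5 higher and 10 lower, 10 and 3, and 8 and 6, in that order. The lists were drawn up with earlier results known, so the shares describe these genes and no more. Of the 14 that fell with TNF, 5 kept the call whichever library was left out (Ivl, Ppl, Ctsd, Ly6a and Elf5), and of the 11 raised by adding ACHP 8 did (Ivl, Ctsd, Krt8, Krt18, Krt19, Ly6a, Cebpd and Jund). Of the 9 that fell with ACHP 1 did (Maf). Without TNF replicate 1, 2 or 3 the related genes raised by TNF were 2, 3 and 3, and those lowered were 5 without TNF replicate 1 and 9 without PBS replicate 3. Those lowered by adding ACHP were 1 to 4 when any 1 of the 6 libraries compared was left out. Against PBS those higher with TNF and ACHP were 3 to 7 when any 1 library other than PBS replicate 3 and TNF replicate 3 was left out, and those lower were 4 without PBS replicate 2 or TNF+ACHP replicate 3.

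Among 24 tested genes that cross-link the envelope or join keratinocytes, TNF lowered 5 and raised 1 by edgeR, where 2.91% of all genes tested fell and 3.31% rose, and DESeq2 gave 3 and 1. Scel, which encodes the envelope precursor sciellin, fell by 0.69 ± 0.19 (SE) on the log2 scale, from 4.50 ± 0.82 to 2.81 ± 0.33 CPM (SD, n = 3; edgeR adjusted p = 0.038), a call lost without PBS replicate 3 or any 1 of the TNF libraries (up to 0.19, edgeR). Pkp1, a desmosomal plakophilin of stratified epithelium, rose without overlap, from 11.7 ± 0.79 to 16.6 ± 0.14 CPM, by 0.50 ± 0.08 (edgeR adjusted p = 0.00063). With ACHP it fell by 0.29 ± 0.08 (edgeR adjusted p = 0.033), a call lost without any 1 of the 6 libraries compared (adjusted p = 0.065 to 0.1, edgeR). Dsg3, a desmoglein of basal keratinocytes, was lower with TNF and ACHP than with PBS, with a log2 difference of -0.68 ± 0.15 (edgeR adjusted p = 0.0069).

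Keratins of simple epithelium and of stressed epidermis were both present. Adding ACHP to TNF raised 4 of 10 tested keratins (Krt8, Krt17, Krt18 and Krt19) and lowered Krt20 by edgeR, where 2.71% of all genes tested rose and 4.46% fell, and DESeq2 gave 4 and 0. A term for the libraries high in neuronal transcripts, described below, ended all 5 calls (adjusted p = 0.055 to 0.87, edgeR). With it the log2 difference went from 0.17 to 0.18 for Krt8, 0.25 to 0.48 for Krt17 and 0.27 to 0.26 for Krt19. That of Krt18 stayed at 0.2, and that of Krt20 went from -0.18 to -0.05. Krt19 had 278.0, 277.2 and 285.7 CPM with TNF and 322.2, 331.8 and 358.3 CPM with TNF and ACHP, a rise of 0.27 ± 0.04 (SE) on the log2 scale (edgeR adjusted p = 0.00014). Krt17, induced in wounded epidermis, rose by 0.46 ± 0.07 between PBS and TNF with ACHP (edgeR adjusted p = 0.00048) in all alternatives run, and by 0.25 ± 0.07 between TNF and TNF with ACHP (edgeR adjusted p = 0.032), a call lost without TNF replicate 1 or 2 or TNF+ACHP replicate 2 or 3 (up to 0.18, edgeR). Krt16, another stress keratin, had 22, 15 and 28 counts in PBS, 65, 28 and 58 in TNF alone and 47, 46 and 52 in the combination. It rose by 1.24 ± 0.30 with TNF (edgeR adjusted p = 0.016), lost without PBS replicate 2 or TNF replicate 1 or 3 (up to 0.1, edgeR), and by 1.10 ± 0.30 in TNF with ACHP against PBS (edgeR adjusted p = 0.035), lost without those 3 libraries or TNF+ACHP replicate 1 or 3 (up to 0.18, edgeR).

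Of 13 other tested Ly6/uPAR genes, the family of Psca, TNF lowered 3 by edgeR (Ly6a, Lynx1 and Ly6c1), where 2.91% of all genes tested fell. DESeq2 called 1 of them, Ly6a. Ly6a, a surface protein of progenitor and activated cells, had 784.2, 763.3 and 762.4 CPM in PBS, 670.6, 647.3 and 660.7 CPM with TNF, and 747.1, 747.5 and 784.9 CPM with TNF and ACHP. The TNF libraries were the lowest and the other groups overlapped, with log2 differences of -0.22 ± 0.03 (SE) for TNF against PBS (edgeR adjusted p = 0.00017) and 0.20 ± 0.03 for TNF with ACHP against TNF (edgeR adjusted p = 0.00042). Lynx1, a neighbour of Psca in the Ly6 cluster, fell by 0.37 ± 0.09 with TNF (edgeR adjusted p = 0.016), lost without PBS replicate 2 or 3 or TNF replicate 1 or 3 (up to 0.082, edgeR). Ly6c1 fell by 0.64 ± 0.16 in TNF with ACHP against PBS (edgeR adjusted p = 0.017), lost without TNF+ACHP replicate 3 (0.094, edgeR).

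Of 33 tested regulators, TNF lowered 4 and raised 1 by edgeR (2.91% and 3.31% of all genes), and adding ACHP raised 3 and lowered 4 (2.71% and 4.46% of all genes). DESeq2 gave 4 and 1, then 2 and 2. The 4 lowered with ACHP (Grhl3, Zfp750, Maf and Ehf) all lost the call with either term for neuronal transcripts described below (adjusted p = 0.053 to 0.83, edgeR). With the library term and the covariate Maf went from -0.81 to -1.09 and -0.94, and Zfp750 from -0.74 to -1.07 and -0.93. Ehf went from -0.14 to -0.11 and -0.12, and Grhl3 from -1.02 to -0.35 and -0.67. Elf5, an ETS factor of glandular and keratinising epithelium, had 5.29, 5.85 and 6.06 CPM in PBS, 1.92, 2.00 and 2.37 CPM with TNF, and 2.45, 3.20 and 2.93 CPM with TNF and ACHP. All PBS libraries stood above the rest, as for Sprr2g and Psca, with log2 differences of -1.46 ± 0.18 (SE) for TNF against PBS (edgeR adjusted p = 3.2e-05) and -0.998 ± 0.17 for TNF with ACHP against PBS (edgeR adjusted p = 0.0013). Maf, a factor of late keratinocyte differentiation that macrophages also express, fell by 0.81 ± 0.17 when ACHP was added (edgeR adjusted p = 0.0044). Grhl3, a grainyhead factor of the epidermal barrier and of urothelium, fell by 1.02 ± 0.27 in the same comparison (edgeR adjusted p = 0.027), lost without TNF replicate 1 or 3 or any 1 of the TNF+ACHP libraries (up to 0.13, edgeR).

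**Figure D4:**
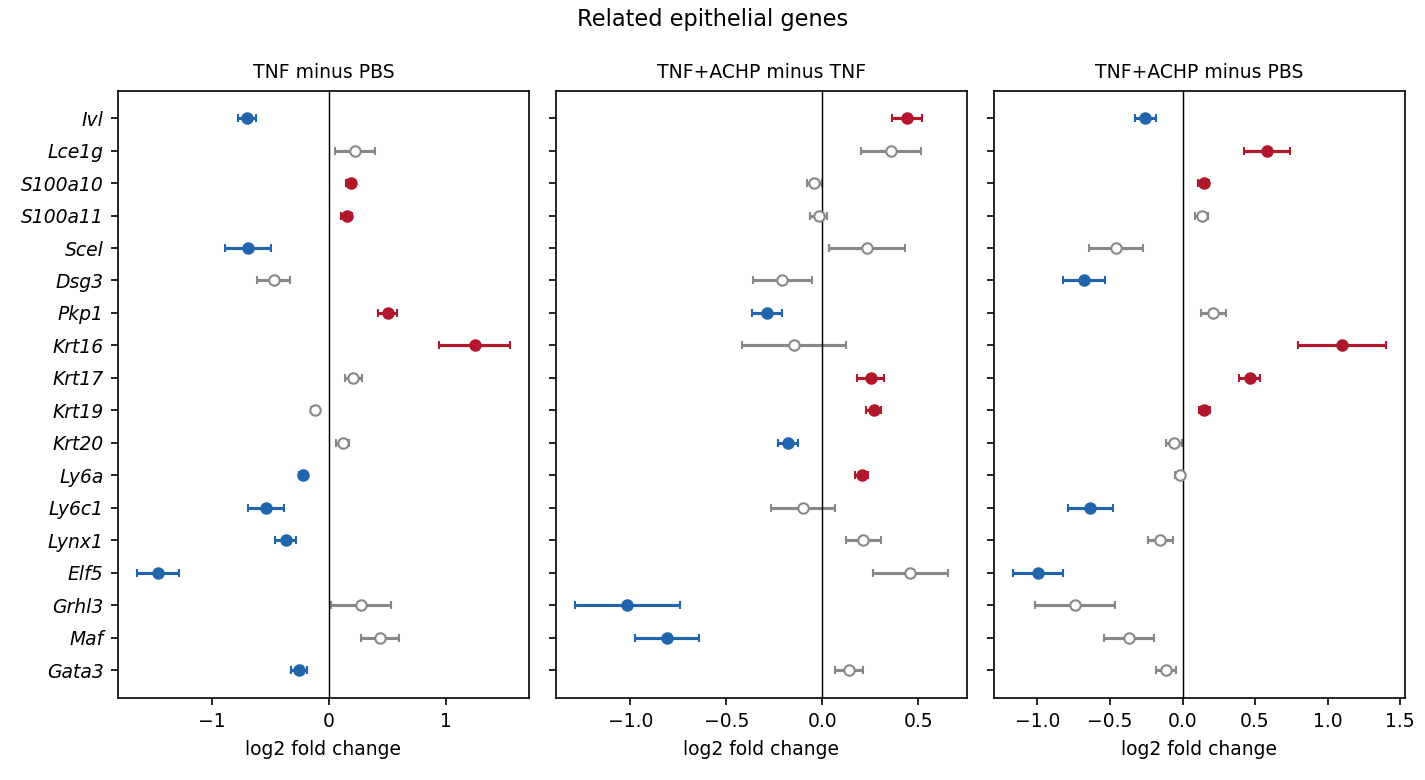
Log2 fold change (horizontal axis, bars ± SE) of 18 related genes in the 3 comparisons, each panel on its own scale; filled red or blue points passed an edgeR adjusted p under 0.05 as higher or lower, open grey points did not. Ivl and Ly6a are lower with TNF and higher when ACHP is added, and Elf5 lies lower than PBS in both groups that received TNF.

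Psca, Krt20 and uroplakins are also known from urothelium, the lining of the renal pelvis. Of 14 urothelial markers 10 were tested, Upk3a was at 0 counts in every library, and their summed level was 133.7 to 141.7 CPM in PBS, 136.8 to 140.5 with TNF and 126.1 to 130.6 with TNF and ACHP. Gata3, which marks both urothelium and collecting duct, fell by 0.25 ± 0.07 (SE) on the log2 scale with TNF (edgeR adjusted p = 0.038), lost without PBS replicate 1 or 3 or TNF replicate 1 or 3 (up to 0.17, edgeR). Krt20 fell by 0.18 ± 0.05 when ACHP was added (edgeR adjusted p = 0.045), lost without any 1 of the TNF libraries or TNF+ACHP replicate 1 or 2 (up to 0.24, edgeR). Krt20 (69.2 ± 4.48 CPM in PBS, SD, n = 3) and Gata3 (33.9 ± 1.84) made up most of the sum, and of the uroplakins Upk1a (0.54 ± 0.09 CPM in PBS), Upk3b (3.47 ± 0.52) and Upk3bl (1.91 ± 0.61) passed the filter. The part of urothelial cells in the lower Psca with TNF was not tested. In bulk RNA fewer cells of a type and less RNA per cell cannot be told apart.

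Total counts were 14194295 to 20892176 per library. Epithelial markers of the distal nephron and collecting duct list summed to 4787 to 5310 CPM, led by Krt8, Cdh1 and Krt18. Krt8 and Krt18 are keratins of simple epithelium in general, so this sum does not identify a segment. Of the 19 genes listed 5 had under 20 counts. Aqp2, which defines principal cells of the collecting duct, and Slc22a6 of the proximal tubule were at 0 counts. Macrophage markers summed to 43.3 to 47.2 CPM in PBS, 45.1 to 47.6 with TNF and 25.5 to 28.2 with TNF and ACHP. They were thus lower where Clca3b, Sprr1a and Crct1 were higher. Of the 14 macrophage markers 11 were tested. By edgeR 7 were called between TNF with ACHP and TNF (7.17% of all genes) and 0 between TNF and PBS. Fibroblast markers summed to 815.3 to 929.4, 731.5 to 755.2 and 630 to 694.9 CPM in PBS, TNF and TNF with ACHP. Proximal tubule markers summed to 44.5 to 48.3, 30.4 to 34.8 and 33.0 to 36.2 CPM, highest in PBS as Sprr2g and Psca were. Of these 10 markers 6 had under 20 counts and 4 were tested. Ggt1 led the sum, with means of 27.3, 18.5 and 18.9 CPM. It was named above as most like Psca, so the likeness of the sum to Psca partly repeats that choice. The part of any of these cell types in the results was not tested.

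Transcripts of neurons, a cell type that the labels do not name, also moved with the groups. The 20 neuron markers, none of them at 0, summed to 17.5 CPM in PBS replicate 1 and 128.4 and 96.2 in PBS replicates 2 and 3. The sums were 53.2 to 81.8 with TNF and 15.9 to 19.1 with TNF and ACHP. By edgeR 14 of the 20 were called between TNF with ACHP and TNF (7.17% of all genes). Markers of astrocytes and oligodendrocytes summed to 127.7 to 245.1, 167.6 to 197.3 and 115.6 to 118.1 CPM. PBS replicate 1 had 24.2 CPM of Clca3b, 93.5 of Sprr1a, 7.48 of Crct1, 13.3 of Sprr2g and 5.43 of Psca. Clca3b was the highest of the PBS libraries there, Sprr1a, Crct1 and Sprr2g the lowest, and Psca lay between the others. A term was fitted for the 5 libraries high in neuronal transcripts, and its size rests on the PBS libraries alone. All TNF libraries were among the 5 and no TNF+ACHP library was. In that comparison the term therefore widened the standard errors, for Clca3b from 0.07 to 0.132. A call lost with the term can come from a wider error as well as from a smaller difference. With the term the log2 difference of TNF with ACHP from TNF was 1.11 ± 0.13 (SE) for Clca3b, 0.94 ± 0.09 for Sprr1a and 0.91 ± 0.22 for Crct1. It was 0.36 ± 0.185 for Sprr2g and 0.30 ± 0.32 for Psca. The difference of TNF with ACHP from PBS for Sprr2g went from -0.76 ± 0.11 to -0.57 ± 0.15. Among the related genes 2 of the 20 calls of adding ACHP held with this term (Ctsd and Jund). Those it ended included Ivl (adjusted p = 0.35, edgeR), Pglyrp3 (0.47), Pkp1 (0.71), Krt8 (0.26), Krt17 (0.055), Krt18 (0.16), Krt19 (0.094), Krt20 (0.87), Ly6a (0.26), Maf (0.094) and Grhl3 (0.83). Of the 18 calls of TNF with ACHP against PBS 3 held (Krt17, Fosl2 and Atf3), and those ended included Ivl (adjusted p = 0.16, edgeR), Lce1f (0.2), Lce1g (0.17), S100a10 (0.37), Dsg3 (0.19), Krt16 (0.5), Krt19 (0.29), Ly6c1 (0.25) and Elf5 (0.1). Of the 20 calls of TNF against PBS 16 held, and S100a11 (adjusted p = 0.052, edgeR), Evpl (0.061), Ly6c1 (0.074) and Gata3 (0.11) were lost. With the summed level of the neuron markers as a covariate 4, 2 and 20 calls held in that order.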

How the data were processed

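The authors deposited raw read counts for each Ensembl gene in 9 libraries of total RNA. STAR, featureCounts and DESeq2 on mm10 are named, per the submitters' processing notes. Per the file headers, however, the authors counted with featureCounts 2.0.1 on Ensembl 109 for GRCm39 at default settings, which ignore strand, and coordinates here are on GRCm39. Symbols were matched to 52029 identifiers (99.6% of counts).

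The analysis used edgeR 4.0.16 in R 4.3.3: filterByExpr (14747 genes kept), TMM factors (0.993 to 1.01) and a quasi-likelihood fit with a mean per group over all 9 libraries. The common dispersion that edgeR fitted over all genes corresponds to a coefficient of variation between replicates of 4.01%, beyond counting noise. Observed values for single genes can be larger, up to 18.8% among the 5 genes (Psca in PBS). Calls required an adjusted p under 0.05 (Benjamini-Hochberg, every tested gene included), and standard errors came from the F statistic. Total counts were 14194295 to 20892176. Replicates differed beyond sampling noise (chi-square over degrees of freedom 1.87 to 6.53).

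The 5 genes, the lists and the tests were chosen with earlier results of these data known. Named besides the 5 were up to 3 called genes per list with the largest change and at least 1 CPM, the 3 genes most like each of the 5, and the nearest tested gene on each side. Other genes named were chosen after their values were seen. Correlations used log2 CPM with a prior count of 2. Alternatives were DESeq2 1.42.0, RLE factors, library totals without factors, no filter, a minimum of 1 CPM in 3 libraries, each library left out, the replicate number as a block, and 2 terms for neuronal transcripts. No library was left out of the values reported.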

Additional observations from a re-analysis of the deposited data

How the results depend on the processing

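The log2 differences of the 5 genes were computed under 255 alternatives (15 differences, 17 settings each). Some moved by more than their standard error, with a library left out as well as under the terms for neuronal transcripts. Without PBS replicate 3, Clca3b in TNF with ACHP against PBS went from 1.266 ± 0.069 (SE) to 1.186 ± 0.07. With the neuronal library term, Clca3b in TNF with ACHP against TNF went from 1.296 ± 0.07 to 1.113 ± 0.132. Differences near 0 (Clca3b and Crct1 for TNF against PBS, Psca for TNF with ACHP against TNF) changed sign in some of them within their error, and no other did. The cause of the moves beyond the error was not tested. The 29 calls of named related genes and neighbours were lost in 133 of 493 alternatives, with the direction kept in all of them: 35 of 58 with the neuronal terms, 81 of 261 with a library left out, 15 of 145 with another tool, scaling or filter, and 2 of 29 with the replicate block. For TNF with ACHP against TNF the neuronal library term left 143 genes called of all genes and the neuronal level as a covariate 239, against 1058; related genes were then 2 and 4 higher, and 0 and 0 lower. DESeq2 called 3 related genes lower there, and 15 were lower at an unadjusted p under 0.05 in edgeR. For TNF with ACHP against PBS the same terms left 162 and 137 genes against 891, with 3 and 2 related genes higher and 0 and 0 lower (6 by DESeq2, and 23 at an unadjusted p under 0.05 in edgeR). Leaving out each library gave 468 to 957 genes for TNF against PBS (917 with all), 541 to 1327 for TNF with ACHP against TNF and 494 to 988 for TNF with ACHP against PBS. Related genes higher and lower then were 2 to 6 and 5 to 17, 8 to 14 and 1 to 11, and 3 to 10 and 4 to 7, in that order. The lowest of these came without TNF replicate 1 (468, 2 and 5), TNF replicate 2 (541), TNF replicate 3 (1) and TNF+ACHP replicate 3 (494, 3 and 4). Same-numbered libraries of different groups did not clearly deviate together. Their 9 correlations were -0.10 to 0.174, 2 of them over 0.1, and the 18 between other numbers were -0.211 to 0.173. Of the libraries, 1 correlated best with its own number. With 3 libraries per group these values cannot decide whether the numbers pair the samples. With the replicate block 945, 1175 and 988 genes were called in the 3 comparisons, and 2 of the named calls were lost. At 44 to 136 counts the depth limits Psca most.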
